A study of Homo sapiens with 26 samples.

Results

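Protein kinase C (PKC) enzymes are serine/threonine kinases that carry signals from membrane lipids. The 8 genes described here were taken by symbol from the expression tables, PRKCA, PRKCB, PRKCD, PRKCE, PRKCH, PRKCQ, PRKCI and PRKCZ, out of 26485 genes in all. The set was chosen by the xenograft values of PRKCZ, which was seen to be much higher in the tumours labelled RUNX1T1 KO. The xenograft values of all 8 genes are therefore given as a description without a test, and tests were made in the cell culture libraries.

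Receptors that activate phospholipase C release diacylglycerol and calcium, and these second messengers recruit PKC enzymes to membranes. Conventional isozymes (such as PRKCA and PRKCB) respond to calcium and diacylglycerol, and a further class (PRKCD, PRKCE, PRKCH and PRKCQ) responds to diacylglycerol alone. The atypical isozymes PRKCI and PRKCZ respond to neither and work through protein partners, among them the PAR polarity complex. PKC signalling is known in neuroblastoma lines mainly because phorbol esters, which mimic diacylglycerol, drive neurite outgrowth in them. PRKCZ also has an internal start site that is known from brain and gives a shorter kinase form without the regulatory domain.

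The samples were cells of KELLY, a MYCN-amplified human neuroblastoma line in wide use, carrying the lentiviral vector F1HUTG, in which doxycycline switches on a short hairpin RNA. The EV line held the empty vector, and the sh4 and shAMB lines held hairpins directed at RUNX1T1, the gene of a transcriptional co-repressor. Each line was cultured for 72 h with doxycycline (Dox) or with its solvent DMSO, in 3 replicates, which made 18 libraries in 6 groups. The vector also carries GFP, and how transduced KELLY cells were selected is not given in the sources used here. A further 8 libraries came from tumours that KELLY cells formed under the skin of female NOD SCID gamma mice, 4 labelled Control (WT, control food) and 4 labelled RUNX1T1 KO (food with doxycycline). The KO label thus stands for a knock-down. The labels do not name the hairpin in the tumours, while the methods of the study describe it as built on an Ambion siRNA sequence, which the name shAMB resembles. No empty-vector tumours were analysed here, so doxycycline and hairpin cannot be told apart in the xenografts. The mice lack mature lymphocytes but keep mouse stroma, vessels and myeloid cells. Culture columns carry the words Neg and Pos, taken here to mean DMSO and doxycycline, and the direction of each culture comparison rests on that reading.

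Total expected counts were 35115915 to 54736733 in culture and 47346063 to 62378060 in the xenografts. RUNX1T1 itself averaged 40.9 CPM (counts scaled to a common library total) in shAMB DMSO and 42.5 CPM in shAMB Dox, 34.3 and 31.8 CPM in the sh4 line, 41.9 and 37.7 CPM in the EV line, and 35.5 CPM in Control against 30.2 CPM in KO tumours. None of these 4 differences passed edgeR's quasi-likelihood test (adjusted p = 0.117 to 0.672), and in the shAMB line the mean of the libraries labelled doxycycline was the higher one. The RUNX1T1 change with doxycycline was higher in shAMB than in EV by 0.21 on the log2 scale (adjusted p = 0.0353 by edgeR). Between sh4 and EV these changes differed by 0.044 (adjusted p = 0.686 by edgeR). With DMSO alone, RUNX1T1 was lower in sh4 than in EV by a log2 difference of -0.29 (adjusted p = 0.0144 by edgeR). The RNA of the targeted gene therefore does not check the labels, and every direction below is that of libraries as labelled. All 8 neuroblastoma markers (among them ISL1, GATA3 and MYCN) were present in all groups, whereas CD3D, a defining T cell gene, had 0 counts in all 26 libraries. Nothing in the labels says that replicates were separate cultures, so p-values measure the spread between these samples, which may be technical.

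Each promoter window shown here runs from 250 bases before to 50 bases after a RefSeq transcription start (GRCh38.p14), with CG dinucleotides in capitals and the strand of the gene, which is the plus strand in all 3. The PRKCZ windows are given because the set was chosen by this gene, and the PRKCI window because PRKCI is the other atypical isozyme and the most abundant member. For PRKCZ the first annotated start (called full-length here) and the last one (called internal here) are shown. Other annotated PRKCZ starts lie between them, and which start gives the shorter kinase form was not tested.
PRKCZ full-length start, chr1:2050161-2050460: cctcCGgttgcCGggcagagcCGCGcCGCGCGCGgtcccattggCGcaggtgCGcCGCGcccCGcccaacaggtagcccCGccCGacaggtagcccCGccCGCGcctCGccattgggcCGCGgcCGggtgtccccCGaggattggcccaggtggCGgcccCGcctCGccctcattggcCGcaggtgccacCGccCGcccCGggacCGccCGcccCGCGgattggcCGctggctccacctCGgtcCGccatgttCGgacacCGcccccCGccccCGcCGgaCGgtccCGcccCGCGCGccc
PRKCZ internal start, chr1:2104466-2104765: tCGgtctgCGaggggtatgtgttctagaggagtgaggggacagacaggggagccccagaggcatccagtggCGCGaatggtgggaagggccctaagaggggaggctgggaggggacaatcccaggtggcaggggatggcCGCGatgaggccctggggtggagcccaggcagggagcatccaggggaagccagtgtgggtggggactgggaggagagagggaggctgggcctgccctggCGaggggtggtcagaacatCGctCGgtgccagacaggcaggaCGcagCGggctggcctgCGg
PRKCI start, chr3:170222174-170222473: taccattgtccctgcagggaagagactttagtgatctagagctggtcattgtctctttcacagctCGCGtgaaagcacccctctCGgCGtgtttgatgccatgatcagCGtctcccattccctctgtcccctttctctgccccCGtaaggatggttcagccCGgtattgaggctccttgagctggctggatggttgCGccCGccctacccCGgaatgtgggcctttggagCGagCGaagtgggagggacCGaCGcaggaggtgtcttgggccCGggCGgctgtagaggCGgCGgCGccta
The full-length PRKCZ window held 47 CG dinucleotides and was 81.0% G or C, more CG than 97.6% of the 35116 RefSeq windows of this length, whose median was 14. The internal PRKCZ window held 12 and the PRKCI window 19, more than 46.9% and 57.1% of all windows. The PRKCZ windows that begin at 2073414 and 2073821, not shown, held 15 and 30. The PRKCZ match to CATCTG given next lies in the window at 2073821. Of the 13 windows of the 8 members, none held the MYC-type E-box CACGTG (7.26% of all windows), 1 held CATCTG (a PRKCZ window; 14.7%) and 1 held TGTGGT, the RUNX core (a PRKCD window with 2 matches; 13.1%), searched on both strands with no motif overlapping another. The deposited counts are per gene, so they do not tell which PRKCZ start was used.

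The most abundant PKC transcript in every group was PRKCI. To compare genes, CPM was divided by gene length, and in EV DMSO the levels per kilobase were 29.0 ± 1.92 for PRKCI and 11.1 ± 0.432 for PRKCA (SD, n = 3). PRKCE at 5.78 ± 0.147 and PRKCD at 5.73 ± 0.768 CPM per kb did not differ beyond their spread, and PRKCH followed at 0.621 ± 0.0641. PRKCZ stood at 0.0752 ± 0.0524, PRKCQ at 0.0153 ± 0.0145 and PRKCB at 0.00414 ± 0.00362 CPM per kb, where PRKCQ and PRKCB did not differ beyond their spread. PRKCI alone thus made up 55.4% of the summed level per kb of the family in EV DMSO, and PRKCZ 0.144%.

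In shAMB Dox the make-up of this pool was different. The share of PRKCI was 42.3% ± 1.48 against 58.1% ± 1.48 in shAMB DMSO, while PRKCA held 25.4% against 19.6%, PRKCE 16.0% against 10.7%, PRKCH 2.28% against 1.44% and PRKCZ 2.10% against 0.140%. The summed level of the 8 genes was 68.8 ± 1.24 CPM per kb in shAMB Dox and 54.3 ± 0.849 in shAMB DMSO. In the xenografts PRKCI held 54.3% in Control and 50.2% in KO tumours, PRKCH 2.96% and 5.64%, and PRKCZ 0.0983% and 2.40%. Culture and xenograft tables were scaled separately, so levels set side by side across them carry no test.

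**Figure D1:**
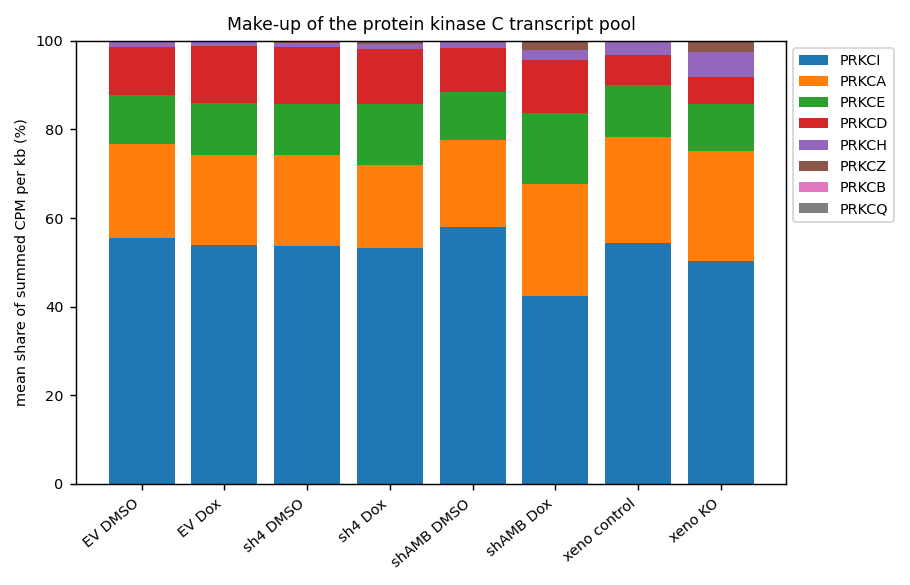
Stacked bars give the mean share (percent) of each PKC gene in the summed CPM per kilobase of the family, one bar per group of 3 culture or 4 xenograft libraries. PRKCI takes the largest share in each bar, 42.3% in shAMB Dox, and the PRKCZ band is visible in shAMB Dox (2.10%) and in KO tumours (2.40%).

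PRKCZ, the atypical isozyme after which the set was picked, was close to its detection limit in most groups and clearly present in 2 of them. Its expected counts were 3, 10 and 4 in EV DMSO (0.0684, 0.270 and 0.115 CPM) and 13, 6 and 5 in EV Dox. The sh4 line had 15, 14 and 9 counts with DMSO and 17, 38 and 16 with doxycycline. The shAMB line had 9, 4 and 5 counts with DMSO (0.222, 0.104 and 0.134 CPM) and 126, 168 and 128 with doxycycline (2.82, 2.94 and 2.95 CPM). Thus the libraries labelled shAMB doxycycline lay above every other culture library, the highest of which was sh4 Dox replicate 2 at 0.740 CPM.
In shAMB, PRKCZ rose from 0.153 ± 0.0613 to 2.90 ± 0.0722 CPM (SD, n = 3 per group), a log2 fold change of 4.21 with a standard error of 0.35 and an adjusted p of 4.95e-08 by edgeR. The ratio of the summed counts, 422 against 18, was 18.8 after scaling for depth, with an exact 95% interval of 11.8 to 32.0 that covers counting error only. In sh4 the log2 fold change was 0.97 (SE 0.36, adjusted p = 0.0398 by edgeR), from 0.261 ± 0.0361 to 0.511 ± 0.198 CPM. This sh4 call was lost without sh4 Dox replicate 2, the library with 38 counts, where the log2 fold change was 0.59 (adjusted p = 0.268 by edgeR), and in 7 of the 13 alternatives in all, DESeq2 among them (adjusted p = 0.0649; 0.00765 to 0.268 over the 13). In EV the log2 fold change was 0.48 with a 95% interval of -0.57 to 1.53 (adjusted p = 0.681 by edgeR).

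The difference between the doxycycline effects was tested as an interaction. PRKCZ rose more in shAMB than in EV, by 3.73 on the log2 scale (SE 0.66, adjusted p = 0.000255 by edgeR). It rose less in sh4 than in shAMB, with a difference of -3.24 (SE 0.53, adjusted p = 9.86e-05 by edgeR). The sh4 effect exceeded the EV effect by 0.49, with a 95% interval of -0.83 to 1.82 that includes 0 (adjusted p = 0.562 by edgeR).

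**Figure D2:**
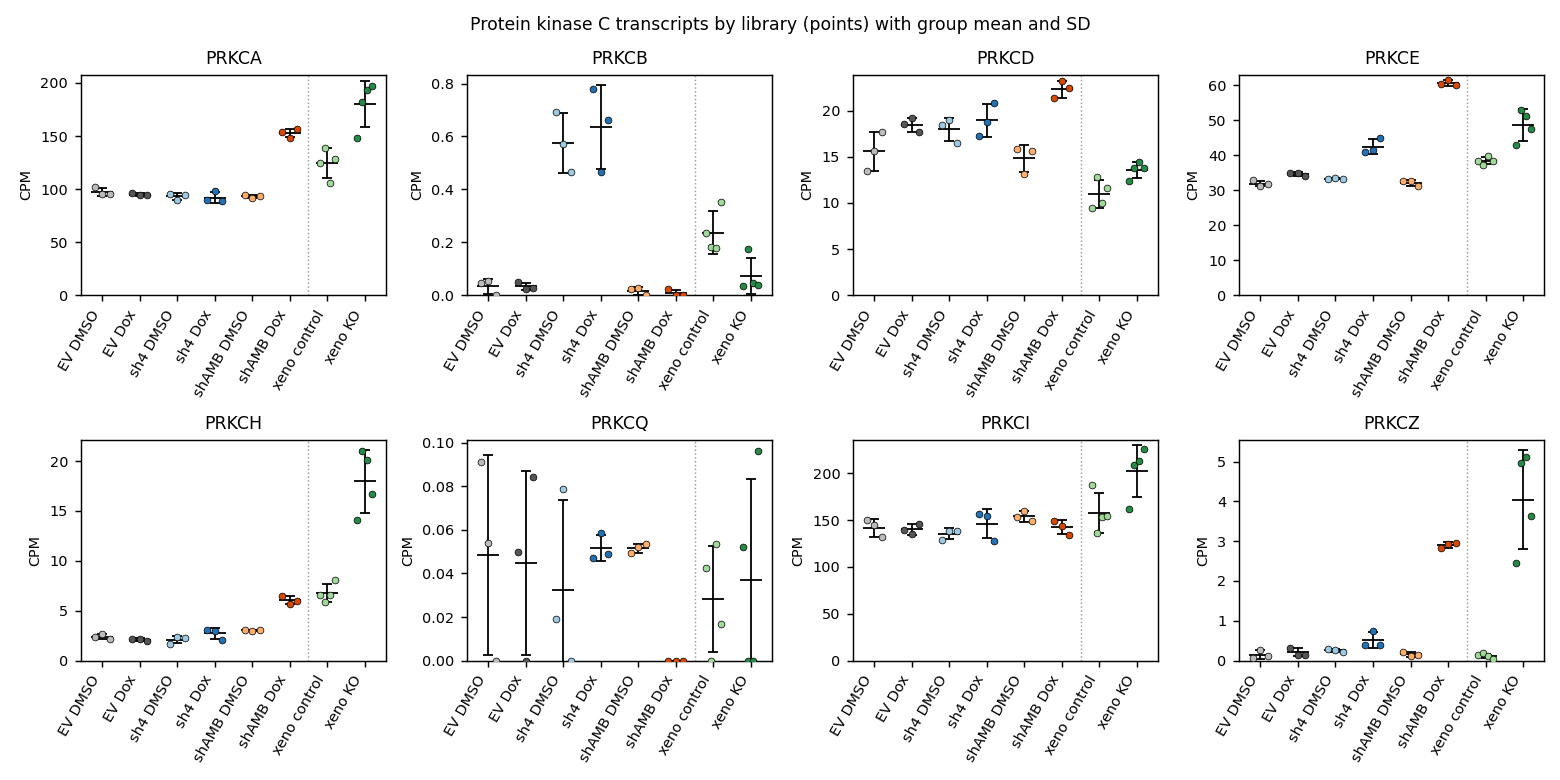
Each panel plots 1 PKC gene, with CPM on a linear axis from 0 and a point per library, and the bars give the mean and SD of each group (3 culture or 4 xenograft libraries; the dotted line separates the 2 tables). PRKCZ lies at 2.82 to 2.95 CPM in shAMB Dox and at or under 0.740 CPM in the other culture groups, whereas PRKCI stays between 128 and 160 CPM in culture.

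PRKCI, the other atypical isozyme and the partner of PAR6 in cell polarity, did not pass the test in any culture comparison. Its values were 154, 160 and 149 CPM in shAMB DMSO and 149, 144 and 134 CPM in shAMB Dox, so the groups overlapped. The log2 fold change in shAMB was -0.11 with a 95% interval of -0.26 to 0.035 (adjusted p = 0.163 by edgeR). It was 0.11 in sh4 and -0.018 in EV. The sign in shAMB depended on the correction used: with trends on GC content and length removed, the log2 fold change was 0.16 (adjusted p = 6.27e-05 by edgeR), and under DESeq2 it was -0.19 (adjusted p = 0.0447). Over the 13 alternatives the adjusted p of PRKCI ran from 6.27e-05 to 0.48.

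Of the 8 members, 7 passed the filter on low counts in culture, and 5 of these 7 rose in shAMB (adjusted p under 0.05, edgeR) while none fell. Of all 14905 genes tested in that comparison, 66.0% were called in either direction and 37.6% were called upward, and the count of members has to be read against these shares. All 5 had shAMB Dox libraries wholly above the shAMB DMSO libraries, which also held for 42.2% of all genes. The median log2 fold change was 0.72 over the 7 members and 0.10 over all genes tested. PRKCB passed the filter only through the sh4 line and PRKCQ did not pass it, so these are not all members.

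PRKCA, the conventional isozyme that calcium and diacylglycerol switch on together, had 94.4, 91.5 and 93.5 CPM in shAMB DMSO and 154, 148 and 157 CPM in shAMB Dox. The groups did not overlap, and the log2 fold change was 0.72 (SE 0.044, adjusted p = 1.58e-09 by edgeR). In the EV and sh4 lines its libraries all lay between 88.4 and 102 CPM, with log2 fold changes of -0.036 and -0.016. The difference of shAMB from EV was 0.75 (SE 0.063, adjusted p = 1.36e-07 by edgeR).

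PRKCE, of the calcium-independent class and known for its part in neurite outgrowth, was the only member called in both hairpin lines under each alternative tried. It had 32.7, 32.7 and 31.1 CPM in shAMB DMSO and 60.5, 61.6 and 60.0 CPM in shAMB Dox, a log2 fold change of 0.92 with an SE of 0.044 (adjusted p = 9.91e-11 by edgeR). In sh4 it had 33.1, 33.6 and 33.3 CPM with DMSO and 41.0, 41.5 and 44.9 CPM with doxycycline, a log2 fold change of 0.35 with an SE of 0.044 (adjusted p = 1.09e-05 by edgeR). The EV libraries moved in the same direction by 0.12, from 31.2 to 32.8 CPM up to 34.0 to 35.0 CPM, without passing the adjusted test (unadjusted p = 0.0177, adjusted p = 0.672 by edgeR). The sh4 effect exceeded that of EV by 0.23 (adjusted p = 0.0105 by edgeR; 0.0511 with no filter on low counts, the highest of 19 alternatives), and the shAMB effect exceeded it by 0.80 (adjusted p = 7.19e-08 by edgeR).

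PRKCH, of the same class, had 3.03, 2.99 and 3.02 CPM in shAMB DMSO and 6.49, 5.70 and 5.98 CPM in shAMB Dox. Its log2 fold change was 1.01 (SE 0.15, adjusted p = 1.96e-05 by edgeR), and it exceeded the EV effect by 1.21 (adjusted p = 0.000262 by edgeR). In sh4 the values were 1.69, 2.32 and 2.30 CPM with DMSO and 3.09, 3.00 and 2.09 CPM with doxycycline, which overlapped through sh4 Dox replicate 3. The sh4 log2 fold change was 0.38 (adjusted p = 0.0566 by edgeR), and 0.54 without that library (adjusted p = 0.00436 by edgeR; 0.00436 to 0.302 over 13 alternatives). Exons of other genes cover 7.01% of PRKCH exon bases on the opposite strand and 4.68% on the same strand, and whether counting used the strand is not given in the sources used here.

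PRKCD, which is known to act in apoptosis, had 15.8, 13.1 and 15.6 CPM in shAMB DMSO and 21.3, 23.2 and 22.4 CPM in shAMB Dox, a log2 fold change of 0.59 with an SE of 0.10 (adjusted p = 0.000102 by edgeR). Over 13 alternatives this change was called each time, but its size ran from 0.24 to 0.77. The EV line moved in the same direction, from 13.5, 15.7 and 17.6 CPM to 18.5, 19.2 and 17.7 CPM, with a log2 fold change of 0.24 (unadjusted p = 0.0283, adjusted p = 0.672 by edgeR). The difference between shAMB and EV was 0.34 with an adjusted p of 0.0609 by edgeR, and 0.44 without EV DMSO replicate 1 (adjusted p = 0.0157 by edgeR; 0.00298 to 0.217 over 19 alternatives). In sh4 the change was 0.076 with overlapping groups. The difference of the sh4 from the shAMB effect was -0.51 (adjusted p = 0.00585 by edgeR) but -0.034 with GC and length trends removed (adjusted p = 0.722 by edgeR, the highest of 19 alternatives).

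**Figure D3:**
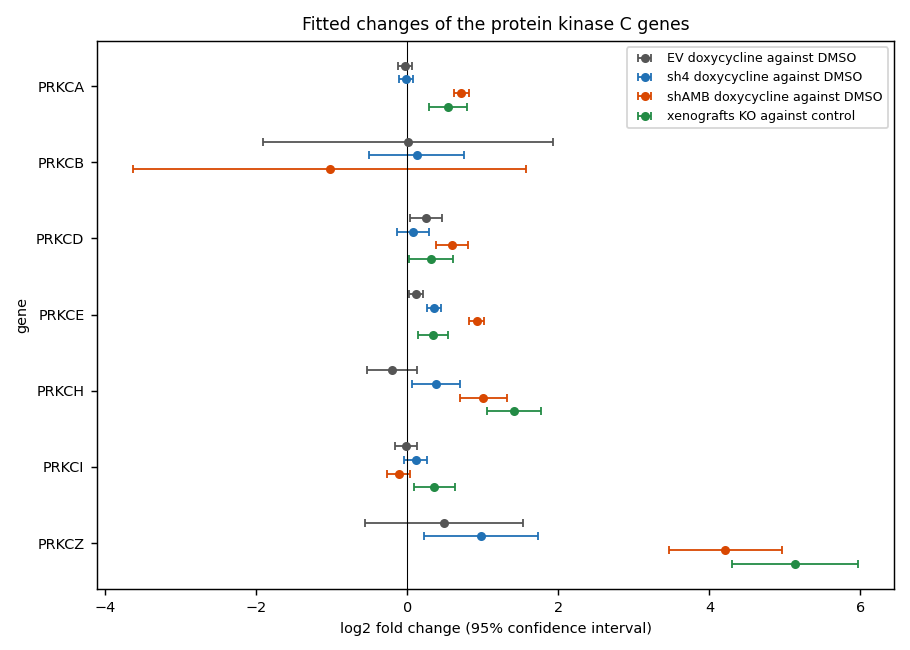
Points give the fitted log2 fold change of each PKC gene tested, with 95% confidence intervals, for doxycycline against DMSO in the EV, sh4 and shAMB lines and for KO against Control xenografts; PRKCQ was tested in none and PRKCB only in culture. PRKCZ lies at 4.21 in shAMB and 5.13 in the xenografts, and the interval of PRKCB in shAMB runs from -3.63 to 1.57.

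In the sh4 line, 2 of 7 tested members rose (PRKCE and PRKCZ) and none fell, where 40.9% of all genes tested were called and 22.9% were called upward. This count was 1 with DESeq2, without the count filter or with the compared groups alone, 5 with GC and length trends removed and 6 with limma on TPM. Without any 1 of the 3 sh4 DMSO libraries or sh4 Dox replicate 2 it was 1, and without sh4 Dox replicate 3 it was 4. The median log2 fold change was 0.12 over the members and -0.0046 over all genes. In the EV line edgeR called 0 of 7 members, against 0.0939% of all genes; 2 of the 7 had an unadjusted p under 0.05 (PRKCD and PRKCE), and DESeq2 and limma on TPM also called 0. Between the effects of 2 lines, 1 of 7 members was called for sh4 against EV (32.6% of all genes), 4 of 7 for shAMB against EV (45.5%) and 5 of 7 for sh4 against shAMB (60.9%). The comparisons with EV share the EV libraries.

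PRKCB, a conventional isozyme abundant in brain and B cells, was detected mainly in the sh4 line, with DMSO and with doxycycline alike. It had 36, 29 and 19 counts in sh4 DMSO and 33, 24 and 27 in sh4 Dox, but at most 2 counts in each of the 12 EV and shAMB libraries. The gene passed the filter only through the sh4 libraries, so its difference between lines is a description without a test. With 84 summed counts in sh4 DMSO against 4 in EV DMSO, the ratio was 16.9 with an exact 95% interval of 6.36 to 63.4, and with doxycycline it was 18 (6.78 to 67.6), both for counting error only. Within sh4 the doxycycline effect was 0.12 with a 95% interval of -0.50 to 0.75. Of the other 6 tested members, edgeR called 0 between the sh4 and EV lines with DMSO, where 1.12% of all genes were called; 0 of the 6 had an unadjusted p under 0.05, and DESeq2 called 0. Between shAMB and EV with DMSO edgeR called 0 members of 7 (1.52% of all genes), PRKCH alone had an unadjusted p under 0.05 (0.0459), and DESeq2 called 0.

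PRKCQ, the isozyme of T cell receptor signalling, was at the detection limit. It had 0 to 4 counts in each culture library and 0 to 5 in each xenograft. All 3 shAMB Dox libraries were at 0, which allows up to 3 counts a library or 0.0524 to 0.0693 CPM. The 3 shAMB DMSO libraries had 2 each, so the groups did not overlap but each library lay within that limit. The difference was not tested, since PRKCQ did not pass the filter. PRKCQ-AS1, an antisense RNA of that locus, had 12, 13 and 11 counts in shAMB DMSO and 1, 4 and 6 in shAMB Dox, and fell by 1.99 on the log2 scale (SE 0.49, adjusted p = 0.00212 by edgeR). PRKCA-AS1 had 0 counts in all 18 culture libraries and 33 to 76 in the 8 xenografts, a gap between 2 tables whose cause was not tested.

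In the xenografts, whose contrast was used to pick the set, PRKCZ had 6, 8, 6 and 3 counts in Control and 141, 282, 328 and 189 in KO tumours. In CPM these were 0.128, 0.181, 0.108 and 0.0502 against 2.46, 4.96, 5.11 and 3.63, with no overlap and a fitted log2 fold change of 5.13 (SE 0.38, n = 4 per group). The ratio of summed counts was 36.7 with an exact 95% interval of 24.3 to 58.1 for counting error. On log2(TPM + 0.1), a scale that understates changes of low genes, the difference was 3.08.

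The other members were described in the same tumours. PRKCH had 6.57, 5.85, 6.56 and 8.08 CPM in Control and 14.1, 21.0, 20.1 and 16.7 in KO tumours, without overlap and with a log2 fold change of 1.41 (SE 0.16). PRKCA had 106 to 139 CPM in Control and 148 to 197 in KO tumours (0.53, SE 0.11), and PRKCE 37.4 to 39.7 and 42.9 to 52.9 CPM (0.34, SE 0.090), again without overlap. On the deposited TPM the groups overlapped for both, at 5.17 to 8.25 and 7.16 to 14.03 TPM for PRKCA and 2.24 to 3.96 and 3.33 to 6.57 TPM for PRKCE. PRKCI, at 136 to 188 and 162 to 226 CPM (0.36, SE 0.13), and PRKCD, at 9.48 to 12.8 and 12.4 to 14.5 CPM (0.31, SE 0.13), overlapped between the groups. PRKCB went the other way, with 11, 8, 10 and 21 counts in Control and 2, 10, 3 and 2 in KO tumours, a ratio of 0.305 (0.165 to 0.538, counting error only). Thus 4 of the 6 tested members had KO tumours wholly above Control tumours, against 18.3% of all 15960 genes tested, a count that was fixed in part by how the set was picked. With PRKCB, whose highest KO tumour (0.176 CPM) lay just below the lowest Control tumour (0.179), groups that did not overlap numbered 5 on CPM and 2 on TPM. KO replicate 1 was the lowest of the 4 KO tumours for PRKCA, PRKCD, PRKCE, PRKCH, PRKCI and PRKCZ, and leaving out any 1 tumour gave PRKCZ log2 fold changes of 4.85 to 5.40.

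In such bulk samples fewer cells of a type and less RNA per cell cannot be told apart, so markers of other cells were set beside these values. The other cells of these tumours are mouse cells, while the markers were counted as human genes. Any separation of mouse reads is not given, so the marker sums do not measure how many mouse cells a tumour held. The summed level of 6 T and NK cell markers was 2.89 to 3.82 CPM in Control and 1.65 to 2.25 in KO tumours, nearly all from CD247, with CD3D at 0 in both. Cultured KELLY cells alone had sums of 2.25 to 6.73 CPM, with CD247 group means of 2.44 to 5.99 CPM. The 7 B and myeloid markers summed to 0.427 to 0.636 CPM in Control and 0.961 to 1.74 in KO tumours, higher in every KO tumour, with CD79A and CSF1R the largest terms in the KO group. In culture the same markers summed to 0.0267 to 0.336 CPM. Endothelial markers (6, with EMCN at 0 in KO tumours) summed to 0.931 to 1.36 CPM in Control and 0.628 to 1.85 in KO tumours, with group means of 0.121 and 0.679 CPM for PECAM1, 0.00836 and 0.142 for TIE1, and 0.655 and 0.120 for KDR. In culture KDR averaged 0.290 to 1.98 CPM and PECAM1 at most 0.0352. Fibroblast markers (7, of which none was at 0 in a whole xenograft group) summed to 57.8 to 94.8 CPM in Control and 85.7 to 129 in KO tumours, most of it PDGFRB, against 75.2 to 140 CPM in culture, where PDGFRB averaged 33.8 to 59.1 CPM. The PDGFRB and CD247 RNA was thus also present in cultures of KELLY cells alone. Of the 7 fibroblast markers, only COL1A2 did not overlap between the tumour groups, with means of 0.0182 CPM in Control and 0.205 in KO tumours. Its culture group means were at most 0.0417 CPM. The part of other cell types in the PKC values was not tested.

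PRKCZ lies on chromosome 1 from 2048504 to 2185395 (hg38, RefSeq annotation). In the GENCODE annotation, 12.2% of its exon bases are also exon of FAAP20 or of 2 antisense RNAs on the other strand. FAAP20, a Fanconi anaemia core complex subunit, rose in shAMB from 5.94 ± 1.02 to 11.0 ± 0.685 CPM (log2 fold change 0.89, SE 0.16, adjusted p = 0.000207 by edgeR). MORN1 rose as well, from 0.910 to 1.86 CPM (1.03, SE 0.29, adjusted p = 0.00572 by edgeR). GNB1, a G protein beta subunit, rose by 0.092 (adjusted p = 0.0298 by edgeR), and SKI, a co-repressor of SMAD signalling, fell by 0.13 on the log2 scale (adjusted p = 0.0166 by edgeR). The pseudogene LOC100129534 did not pass (0.53, adjusted p = 0.274 by edgeR). The log2 fold changes of all 5 tested genes within 200 kb lay below the 4.21 of PRKCZ. In sh4, SKI rose by 0.25 (adjusted p = 0.000194 by edgeR) and GNB1 had a log2 fold change of -0.16 (adjusted p = 0.0021 by edgeR), both against their direction in shAMB. In the xenografts MORN1 alone was called (0.78, adjusted p = 0.0224 by edgeR), and FAAP20 differed by 0.44 (adjusted p = 0.116 by edgeR). These calls stand beside 66.0% of all genes called in shAMB, 40.9% in sh4 and 41.1% in the xenografts. CALML6, TMEM52, CFAP74 and GABRD, also within this distance, did not pass the filter in either table. CALML6 was near the detection limit, with 0 to 3 counts in shAMB DMSO and 4 to 7 in shAMB Dox. It had 0 to 2 counts in Control and 2 to 4 in KO tumours, and neither difference was tested.

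**Figure D4:**
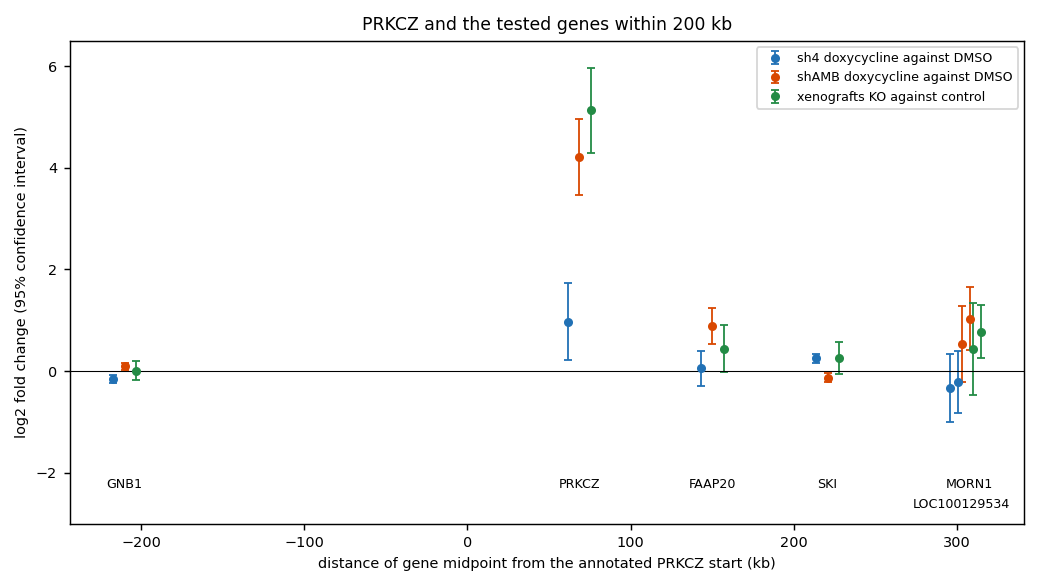
Points show the log2 fold change with its 95% confidence interval of PRKCZ and the 5 tested genes within 200 kb, placed by the distance in kb of the gene midpoint from the annotated start of PRKCZ, for sh4, shAMB and the xenografts (points of one gene are set slightly apart). PRKCZ stands at 4.21 in shAMB and 5.13 in the xenografts, while the largest value of a neighbour is 1.03, for MORN1 in shAMB.

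Among 12709 genes averaging 1 CPM or more, the 5 whose log2(CPM + 1) followed that of PRKCZ most closely over the 18 culture libraries were PIPOX (Pearson r = 0.989), ZNF532 (0.987), PNMA3 (0.987), CACNA1D (0.985) and RGS16 (0.985). These are descriptions, since the libraries share lines and treatments and the range of PRKCZ comes mainly from the 3 shAMB Dox libraries. PNMA3 was the nearest in size, with a log2 fold change of 4.20 in shAMB, beside 0.28 for EV, 1.34 for sh4 and 3.18 for the xenografts. RGS16, a regulator of G protein signalling, averaged 79.7 CPM in shAMB DMSO and 446 in shAMB Dox (2.48), and CACNA1D, a voltage-gated calcium channel subunit, 7.05 and 23.2 CPM (1.72). PIPOX changed by 2.57 and ZNF532 by 0.51 in shAMB.

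The wider PKC pathway was followed in 92 further genes of 8 lists, of which 82 were tested in culture and 83 in the xenografts. In shAMB 34 rose, 24 fell and 24 did not pass the test, so 58 of 82 were called where 66.0% of all genes were. The median log2 fold change was 0.17 over these genes and 0.10 over all genes. In sh4 14 rose and 19 fell, 33 of 82 where 40.9% of all genes were called, and 56 were called without sh4 Dox replicate 3. In EV edgeR called 0, with 4 at an unadjusted p under 0.05 and 0 called by DESeq2. In the xenografts 19 rose and 17 fell of 83, where 41.1% of all genes tested were called, and the median was -0.040 against 0.019 over all genes. With limma on TPM 11 of these genes were called instead of 36.

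Enzymes that make diacylglycerol are the phospholipases C, and 5 of 10 tested rose in shAMB and 1 fell, beside 66.0% of all genes called and 37.6% called upward. PLCH2 rose from 1.22 ± 0.0558 to 10.5 ± 2.14 CPM (log2 fold change 3.11, SE 0.31, adjusted p = 3.64e-07 by edgeR) and also in the xenografts (2.55, adjusted p = 2.92e-05 by edgeR). PLCB2 rose by 1.13 in shAMB and 0.80 in the xenografts but in sh4 it was lower, at -0.37 (adjusted p = 0.0276 by edgeR). PLCD3 rose by 1.31 in shAMB, and its values were -0.61 in sh4 (adjusted p = 0.0649 by edgeR) and 0.48 in the xenografts (adjusted p = 0.161 by edgeR).

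Diacylglycerol kinases remove the lipid by phosphorylating it, and 3 of 9 tested rose in shAMB while 3 fell, beside 66.0% of all genes called. DGKK fell in both hairpin lines, by 1.58 on the log2 scale in shAMB and by 1.71 in sh4, and by 0.97 in the xenografts. In shAMB this was a change from 17.4 ± 0.511 to 5.82 ± 0.026 CPM (adjusted p = 6.78e-11 by edgeR). DGKA rose by 1.17 in shAMB, 1.18 in sh4 and 1.41 in the xenografts. DGKE rose by 1.07 in shAMB and 1.45 in the xenografts, and its sh4 value was 0.077 (adjusted p = 0.427 by edgeR).

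The RASGRP, chimaerin and UNC13 families, which include diacylglycerol-binding proteins, had 5 of 7 tested genes higher in shAMB and 1 lower, beside 66.0% of all genes called. The median was 0.52 against 0.10 for all genes, and in the xenografts 4 of 8 were higher and 1 lower, beside 41.1% of all genes called. RASGRP2, an exchange factor for RAP GTPases, rose from 0.549 ± 0.115 to 3.80 ± 0.388 CPM in shAMB, a log2 difference of 2.79 with an SE of 0.31 (adjusted p = 1.07e-06 by edgeR) and by 1.76 in the xenografts. UNC13D, a vesicle priming factor of the UNC13 family that itself lacks the diacylglycerol-binding domain, rose by 1.82 in shAMB, and its values were 0.0097 in sh4 (adjusted p = 0.986 by edgeR) and 0.39 in the xenografts (adjusted p = 0.391 by edgeR). CHN1, a RAC GTPase activator of neurons, fell by 1.18 on the log2 scale in shAMB and by 0.81 in the xenografts.

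Polarity partners of the atypical isozymes had 6 of 18 tested members higher and 3 lower in shAMB, beside 66.0% of all genes called. CDC42, the GTPase that engages the PAR6 and atypical PKC complex, fell from 326.7 ± 18.8 to 101 ± 7.43 CPM in shAMB (log2 fold change -1.69, SE 0.078, adjusted p = 5.5e-11 by edgeR), by 0.51 on the log2 scale in sh4 and by 1.37 in the xenografts. PARD6B, a PAR6 adaptor, rose by 1.01 in shAMB, 0.81 in sh4 and 1.02 in the xenografts. SQSTM1, a scaffold that binds atypical PKC, rose by 1.07 in shAMB and 0.79 in the xenografts and did not pass in sh4 (-0.15, adjusted p = 0.452 by edgeR).

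The next 3 lists stand beside the same 66.0% of all genes called and 37.6% called upward in shAMB. Among kinases related to PKC, 3 of 6 rose and 3 fell, with PKN3 at 0.89 and PRKD1 at -0.82. Neither passed in sh4, with PKN3 at -0.58 (adjusted p = 0.126 by edgeR) and PRKD1 at 0.45 (adjusted p = 0.0534 by edgeR). PKN3 stood at -0.76 in the xenografts (adjusted p = 0.14 by edgeR). In the xenografts PRKD1, which PKC activates, was lower by a log2 fold change of -1.15 (adjusted p = 0.0158 by edgeR). Of 12 genes for priming and turnover of the kinases, 7 rose and 4 fell, where the chaperone genes HSP90AB1 and HSP90AA1 stood at -0.67 and -0.64. Anchors of PKC had 2 of 7 higher and 3 lower. AKAP12, a scaffold, rose from 218.6 ± 8.24 to 388.1 ± 16.0 CPM (0.83), PICK1 rose by 0.79, and SDCBP fell by 0.55 on the log2 scale.

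PKC substrates had 3 of 13 tested genes higher and 6 lower in shAMB, beside 66.0% of all genes called, with a median log2 fold change of -0.091 against 0.10 over all genes. In the xenografts 4 of 12 were higher and 5 lower, beside 41.1% of all genes called. ADD1, a membrane skeleton protein, fell from 75.7 ± 4.00 to 25.8 ± 1.01 CPM in shAMB (-1.55, adjusted p = 2.03e-11 by edgeR) and from 64.7 ± 6.33 to 22.9 ± 2.21 CPM in the xenografts (adjusted p = 6.8e-06 by edgeR). Its sh4 value was 0.062 (adjusted p = 0.448 by edgeR). STMN2, a microtubule regulator of growth cones, fell by 1.55 on the log2 scale in shAMB, by 0.78 in sh4 and by 0.51 in the xenografts. MARCKSL1, an actin-binding relative of MARCKS, fell by 0.62 on the log2 scale in shAMB, by 0.46 in sh4 and by 0.81 in the xenografts. As these are transcript levels, they say nothing of the phosphorylation of the proteins.

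**Figure D5:**
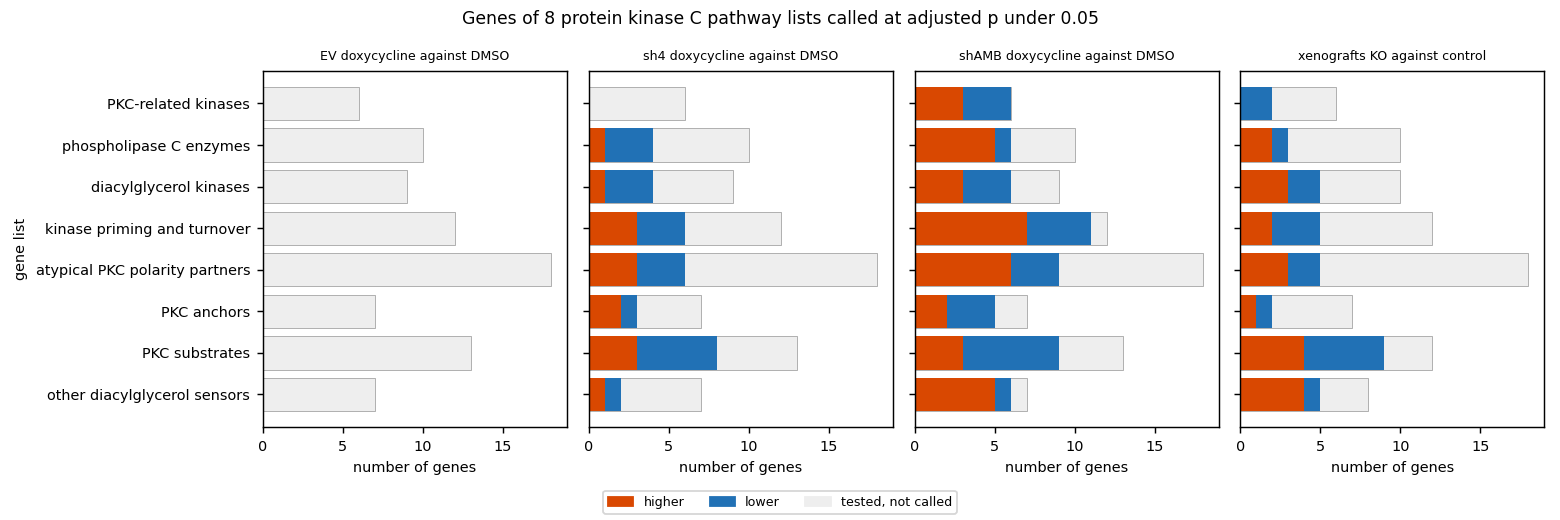
Bars give the number of tested genes in each of 8 PKC pathway lists, with genes higher (orange) and lower (blue) at an adjusted p under 0.05 by edgeR and the remainder in grey, in 4 comparisons. No gene is called in EV, 58 of 82 are called in shAMB and 36 of 83 in the xenografts, in both directions in most lists.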

How the data were processed

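KELLY cells and KELLY xenografts were profiled by RNA sequencing. Per the labels, libraries came from a stranded total RNA kit with paired reads, although polyA RNA is named as the molecule, and the submitters' processing notes name STAR, SAMtools, RSEM and hg38. The annotation, the use of strand in counting and any separation of mouse reads are not given in the sources used here. The authors deposited RSEM expected counts and TPM (transcript abundance corrected for length and library total) per gene, in separate culture and xenograft tables that were not tested against each other. The deposited gene length in the culture count table was used for levels per kb.

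Expected counts were rounded and fitted with edgeR 4.0.16 in R 4.3.3 (filterByExpr, TMM, quasi-likelihood F test, two-sided, Benjamini-Hochberg over 14905 culture or 15960 xenograft genes, threshold 0.05). The 18 culture libraries entered 1 fit and the 8 xenografts another, in 9 comparisons. CPM uses TMM-adjusted totals. Ratios of low counts carry exact conditional binomial 95% intervals, and intervals and limits of 3 counts cover counting error only. Alternatives were RLE factors, no count filter, DESeq2 1.42.0, limma 3.58.1 on log2(TPM + 0.1) for genes with a mean TPM of at least 0.1, a replicate block, a fit to the compared groups alone, leaving out each replicate, and, chosen after the data were seen, the removal of GC content and length trends.

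Members, lists and tests were chosen with earlier results of these data known. Named were the 8 members; antisense RNAs of members; per pathway list the 3 genes of largest absolute shAMB log2 fold change with a mean of at least 1 CPM and an adjusted p under 0.05; tested genes within 200 kb of PRKCZ; and the 5 genes most correlated with PRKCZ. A few items under this rule are not reported here. Symbols matched RefSeq for 25378 of 26485 genes, and promoter windows are from RefSeq. Replicate pairs of a group differed by more than sampling noise (chi-square per degree of freedom of 1.80 to 248).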

Additional observations from a re-analysis of the deposited data

Results flagged for a closer look

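PRKCB in the KO xenografts had a single high tumour, replicate 2, at 0.176 CPM (10 counts), while the other 3 had 2, 3 and 2 counts; its gap to the next tumour exceeded Dixon's 95% limit, which chance exceeds in about 1 in 20 groups. The doxycycline effect differed between lines for 5 members by edgeR's interaction test. Against EV, the shAMB effect was larger by 0.75 (log2) for PRKCA, 0.80 for PRKCE, 1.21 for PRKCH and 3.73 for PRKCZ, and the sh4 effect by 0.23 for PRKCE. Against shAMB, the sh4 effect differed by -0.73 for PRKCA, -0.51 for PRKCD, -0.57 for PRKCE, -0.63 for PRKCH and -3.24 for PRKCZ. PRKCD fell out of this group with GC and length trends removed (-0.034), and PRKCH without sh4 DMSO replicate 2 (adjusted p = 0.0514 by edgeR).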

How the results depend on the processing

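The 840 alternative values of the members' log2 fold changes in culture included 799 that kept their side of the threshold (sign changes of values called in neither fit counted as kept), 12 that lost a call, 26 that gained one and 3 that reversed. The 3 reversals were PRKCA in sh4 with limma on TPM (0.16), PRKCI in shAMB with GC and length trends removed (0.16) and PRKCI for sh4 against shAMB under the same correction (-0.093); the cause was not tested. TPM with limma moved the median gene by 0.17 in shAMB and 0.16 in sh4. The count of members changed in sh4, 2 in the fit reported, was 1 with no count filter, with DESeq2 and with only the compared groups, 6 with limma on TPM, 5 with GC and length trends removed, and 1 to 4 when leaving out single replicates: 1 without sh4 Dox replicate 2 or any sh4 DMSO replicate, 4 without sh4 Dox replicate 3. For sh4 against EV the count of 1 became 0 with no filter, 4 with limma on TPM, 2 with GC and length trends removed, and 1 to 3 when leaving out replicates: 2 without EV DMSO replicate 3 or sh4 DMSO replicate 2 or 3, and 3 without sh4 Dox replicate 3. For sh4 DMSO against EV DMSO no member other than PRKCB was called under any alternative. PRKCB passed the filter only through the sh4 libraries, so its line difference is a description without a test. The 12 lost calls above include 2 of PRKCB in this comparison. Pathway genes called were 1 instead of 0 in EV with GC and length trends removed, 29 to 56 instead of 33 in sh4 when leaving out replicates, the 56 without sh4 Dox replicate 3, and 11 instead of 36 in the xenografts with limma on TPM. Members whose xenograft groups did not overlap numbered 5 (PRKCB included), 2 on TPM, and 5 to 7 when leaving out tumours. Counts of members called in EV, shAMB, shAMB against EV, sh4 against shAMB and shAMB DMSO against EV DMSO stayed within 1.5 times under every alternative run. Over all alternatives, the number of all genes called ranged from 3727 to 8117 in sh4 and from 23 to 707 for sh4 DMSO against EV DMSO. Replicate numbers did not pair the samples: deviations of same-numbered libraries correlated at -0.60 to 0.37 over 6 comparisons. With the replicate block, members changed numbered 2 in sh4, 5 in shAMB and 0 in EV, and pathway genes 35, 57 and 0, with 28 in the xenografts; no call of a member changed. Precision is limited by counts for PRKCB and PRKCQ.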
